A study of Mus musculus with 6 samples.

Results

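The genes described here encode subunits of the SMC5/6 complex and of condensin in mouse hippocampus. They were chosen by symbol as 10 of the 24421 rows of the count table, and all 10 had counts high enough to be tested. The SMC5/6 genes were Smc5, Smc6, Nsmce1, Nsmce2, Nsmce4a and Ndnl2, the last being the older symbol of Nsmce3. The condensin genes were Smc2, Smc4, Ncaph2 and Ncapd3. Hippocampal RNA was sequenced in 3 libraries from CTCF conditional knockout (cKO) mice and 3 from wild type (WT) mice, all of strain C57/Bl and described by the submitters as biological replicates. The labels name no Cre line, no cell type of deletion, no deleted exon and no age. The comparison asks how losing CTCF, a DNA-binding zinc finger protein that acts with cohesin at chromatin loops, alters transcription.

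SMC complexes are rings built from a pair of long coiled-coil ATPases, closed by a kleisin subunit and decorated with further subunits. Condensin compacts chromosomes in dividing cells, and SMC5/6 protects the genome during replication and recombination. SMC5/6 carries a SUMO ligase and a RING subunit, and it also represses some DNA that is not part of a chromosome. Most hippocampal neurons and glia no longer divide.

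Each library held 14974750 to 23220455 counted reads, and 14916 genes passed the low-count filter. Levels are CPM, the counted reads of a gene put on a common library size, with TMM scaling between libraries. Ctcf itself fell to 24.1, 34.5 and 35.8 CPM in cKO libraries, against 64.3, 65.2 and 70.3 CPM in WT libraries (log2 fold change -1.08, SE 0.15, edgeR adjusted p = 0.0264). Transcript was thus still present in every cKO library. Ctcf passed in the fits without cKO replicate 1, cKO replicate 3 or WT replicate 2, and its adjusted p was 0.124 without cKO replicate 2, 0.0604 without WT replicate 1 and 0.101 without WT replicate 3. Of 12 hippocampal neuron markers none was at 0, 10 had positive log2 fold changes and 2 had negative ones. Wfs1 passed the edgeR test as lower in cKO (log2 fold change -1.16), and no marker of this list passed as higher. Fibcd1 went the other way without passing, at 59.4 to 115 CPM in cKO and 23.1 to 54.9 CPM in WT libraries (log2 fold change 1.17). The summed level of the 12 markers was 4965 to 6907 CPM in cKO and 4632 to 5393 CPM in WT libraries. Summed astrocyte markers were at 3752 to 4100 CPM in cKO and 3483 to 3665 CPM in WT libraries. Most of that sum was Slc1a2, at 2340 to 2740 CPM in cKO and 2140 to 2350 CPM in WT libraries. Of the 7 astrocyte markers 4 had positive and 3 had negative log2 fold changes (median 0.02). The sums for microglia and endothelium overlapped between genotypes. The sum for newborn and proliferating cells overlapped too, but its members pointed both ways: Neurod1 had 24 to 28.8 CPM in cKO and 3.51 to 17.2 CPM in WT libraries, and Mki67 2.23 to 4.14 CPM in cKO and 5.22 to 7.9 CPM in WT libraries. Because whole tissue was sequenced, fewer cells of a type and less RNA per cell cannot be told apart.

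Nsmce4a, the kleisin of SMC5/6, was the 1 member that passed the edgeR test, and it fell in cKO; DESeq2 and the authors' deposited table called Smc5 as well. The start regions below are shown for Nsmce4a and for a pair of its partners with higher levels in every cKO library. They run from 250 bases before to 50 bases after the RefSeq start site (GRCm38.p6), 5′ to 3′ on each gene's own strand, and capitals mark motif matches. The Nsmce4a window is chr7:130547332-130547631 on the minus strand, the Ndnl2 window chr7:64872991-64873290 on the minus strand and the Smc6 window chr12:11265636-11265935 on the plus strand.
Nsmce4a: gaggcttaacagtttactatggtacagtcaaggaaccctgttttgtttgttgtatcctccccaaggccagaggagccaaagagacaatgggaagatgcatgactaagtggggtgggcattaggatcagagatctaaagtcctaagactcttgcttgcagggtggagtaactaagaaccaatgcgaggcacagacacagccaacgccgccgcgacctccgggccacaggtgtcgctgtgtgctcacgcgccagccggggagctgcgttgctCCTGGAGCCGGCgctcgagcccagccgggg
Ndnl2: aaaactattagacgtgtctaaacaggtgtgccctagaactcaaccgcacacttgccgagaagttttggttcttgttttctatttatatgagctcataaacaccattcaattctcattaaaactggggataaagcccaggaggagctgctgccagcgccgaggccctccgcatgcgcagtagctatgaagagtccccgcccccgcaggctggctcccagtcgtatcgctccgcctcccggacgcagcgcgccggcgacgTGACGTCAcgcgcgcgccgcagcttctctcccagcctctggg
Smc6: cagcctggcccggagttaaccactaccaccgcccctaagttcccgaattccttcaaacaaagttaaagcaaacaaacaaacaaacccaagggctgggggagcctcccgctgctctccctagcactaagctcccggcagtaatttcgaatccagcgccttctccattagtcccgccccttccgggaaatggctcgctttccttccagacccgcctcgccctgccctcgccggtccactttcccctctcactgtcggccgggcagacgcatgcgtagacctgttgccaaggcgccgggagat
The capitals in Nsmce4a match a loose form of the core recognised by CTCF, with 7 fixed bases and 5 free ones, on the gene's own strand at positions 21 to 32, counting the start site as 1. These letters occurred on either strand in 8.61% of all 32851 RefSeq windows of the same length. The capitals in Ndnl2 match the cAMP response element TGACGTCA, which is its own reverse complement and occurred in 1.79% of all windows, and Ncaph2 also held it. The Smc6 window held no match to these motifs, nor to the E2F letters TTTNNCGC (5.17% of all windows, both strands) or the palindrome of NRF1 (0.971%). The Smc5 window, whose start site lies 1298 bp from the GENCODE 5′ end, and the Smc2 window held no match either. Nsmce2 and Smc4 had no window, and Nsmce1 and Ncapd3 have 2 windows each. Nsmce1 held the E2F letters, on the opposite strand, in the window 153 bp from its GENCODE 5′ end. The window at the 5′ end of Ncapd3 held no match, and the other, whose start site lies 30241 bp inside the gene, held the CTCF core letters on the opposite strand. A match is a description of letters, not of a bound site.

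In Nsmce4a the 3 cKO libraries had 22.7, 24.2 and 25.1 CPM, against 42.3, 37.5 and 40.2 CPM in the 3 WT libraries. Every cKO library lay far below every WT library, with little spread in either group. The mean was 24.0 ± 1.19 CPM in cKO and 40.0 ± 2.41 CPM in WT (SD, n = 3 each), a log2 fold change of -0.74 (SE 0.08, 95% interval -0.93 to -0.54, edgeR adjusted p = 0.0178). This corresponds to a fold of 0.6, beside 0.473 for Ctcf itself. Over all genes tested the same rule called 1.51% in either direction and 0.463% as lower in cKO. The authors' deposited table gave Nsmce4a a log2 fold change of -0.74 and an adjusted p of 8.21e-08.

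**Figure D1:**
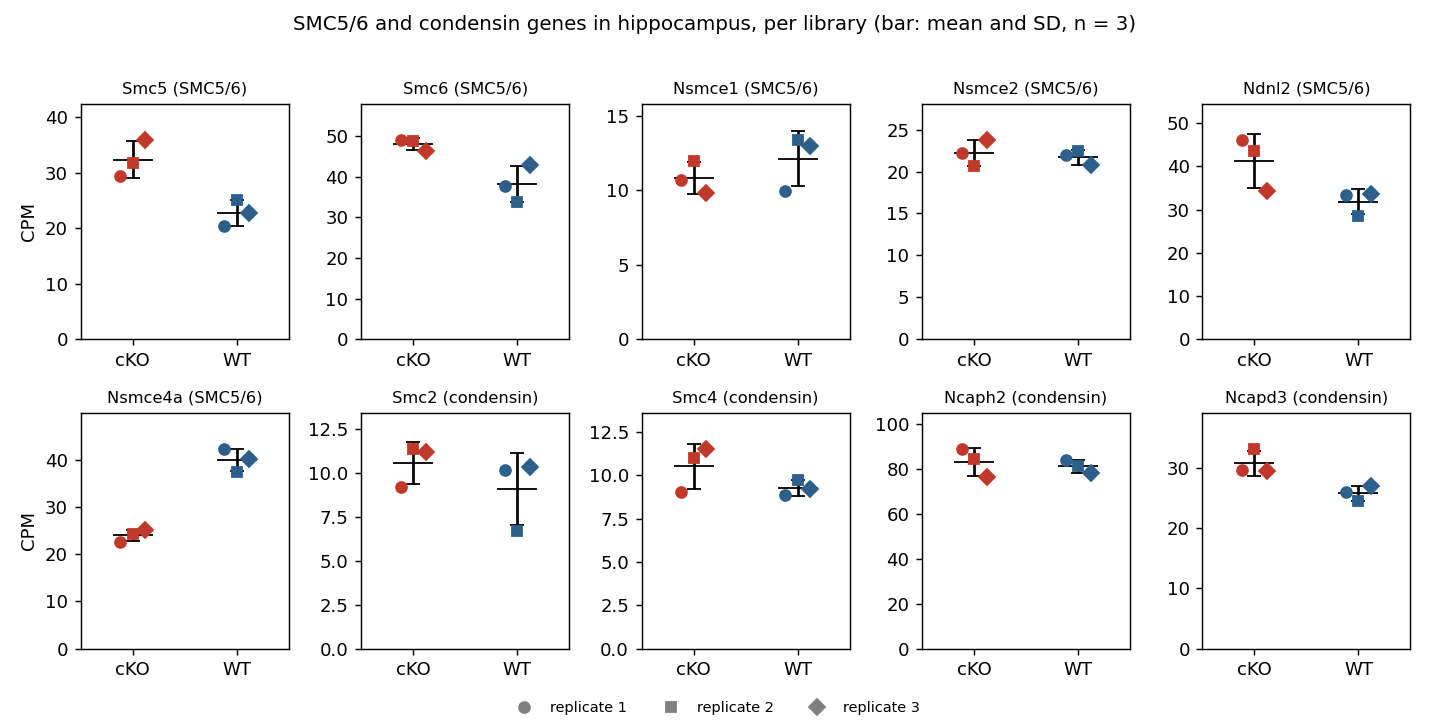
Level of each SMC5/6 and condensin gene in CPM (y axis, from 0) in the 3 cKO libraries (red) and the 3 WT libraries (blue), with marker shape for the replicate and black bars for mean and SD. Nsmce4a lies between 22.7 and 25.1 CPM in cKO and between 37.5 and 42.3 CPM in WT, while Smc5, Smc6, Ndnl2 and Ncapd3 are higher in every cKO library than in any WT library.

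The size of the Nsmce4a decrease hardly depended on any 1 library, but its adjusted p did. The log2 fold change ran from -0.78 to -0.69 when each library was left out in turn. The adjusted p was 0.0888 without cKO replicate 1, 0.123 without cKO replicate 2, 0.0556 without WT replicate 1 and 0.0719 without WT replicate 3, and it was 0.0493 and 0.0119 without cKO replicate 3 and WT replicate 2. Markers of striatum, of choroid plexus and ependyma, and of oligodendrocytes also ran lower in cKO. The summed level of 8 striatal markers was 133.9 to 365 CPM in cKO and 622.2 to 3016 CPM in WT, with all 8 log2 fold changes negative. That of 12 choroid plexus and ependyma markers was 633 to 7021 CPM in cKO and 6358 to 12480 CPM in WT, and that of 10 oligodendrocyte markers 10830 to 14270 CPM in cKO and 14140 to 18750 CPM in WT, again with every log2 fold change negative. The sums for choroid plexus and ependyma and for oligodendrocytes overlapped between genotypes. An unadjusted edgeR p below 0.05 was found for all 8 striatal markers, 6 of 10 oligodendrocyte markers and no choroid plexus or ependyma marker (8.81% of all genes tested on the lower side). Groups did not overlap, lower in cKO, in all 8 striatal and 4 of 10 oligodendrocyte markers, against 12.4% of all genes tested. No marker of these 3 lists passed after adjustment. No marker of these 3 lists was at 0 in all libraries. Leaving out both WT replicate 2, which had the most striatal and choroid plexus RNA, and cKO replicate 1, which had the least, gave a Nsmce4a log2 fold change of -0.74 (edgeR adjusted p = 0.0298). With the same libraries left out the log2 fold change was 0.65 for Smc5, 0.24 for Smc6, 0.21 for Ndnl2 and 0.24 for Ncapd3, genes described next, with edgeR adjusted p-values of 0.0773 to 0.519. The libraries kept still differed in summed striatal markers, at 365 and 214.9 CPM in cKO and 622.2 and 1240 CPM in WT. That fit therefore cannot separate tissue content from genotype, and the part of these markers in the values of single genes was not tested.

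The ATPase pair of the complex, Smc5 and Smc6, showed values in the opposite direction. Smc5 had 29.4, 31.8 and 35.9 CPM in cKO libraries, against 20.4, 25.1 and 22.8 CPM in WT libraries. The groups did not overlap, and the log2 fold change was 0.51 (SE 0.11, 95% interval 0.24 to 0.77), but the edgeR adjusted p was 0.0782. DESeq2 placed Smc5 past the threshold (adjusted p = 0.0155), as did the authors' deposited table (adjusted p = 0.0207, log2 fold change 0.50). Smc6, its partner ATPase, had 48.96, 48.7 and 46.3 CPM in cKO libraries, against 37.8, 33.8 and 42.7 CPM in WT libraries. Here too no library of one group reached the other, with a log2 fold change of 0.33 (SE 0.10, 95% interval 0.10 to 0.56, edgeR adjusted p = 0.141).

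The other 3 subunits of SMC5/6 varied among themselves, and none passed the test. Ndnl2, a MAGE family protein that joins the RING subunit to the kleisin, had 46.1, 43.6 and 34.2 CPM in cKO libraries, against 33.3, 28.5 and 33.7 CPM in WT libraries. The groups were separate by a narrow margin between cKO replicate 3 and WT replicate 3, and the gene did not pass (log2 fold change 0.37, SE 0.13, edgeR adjusted p = 0.184). Nsmce1, the RING finger subunit, had 10.7, 11.98 and 9.86 CPM in cKO libraries, against 9.99, 13.4 and 13.0 CPM in WT libraries. Its groups overlapped, with a log2 fold change of -0.17 and a 95% interval of -0.52 to 0.18. Nsmce2, the SUMO ligase, had 22.2, 20.6 and 23.8 CPM in cKO libraries, against 21.97, 22.4 and 20.7 CPM in WT libraries. Its groups overlapped too, and its log2 fold change was the closest to 0 of the SMC5/6 genes, at 0.03 with an interval of -0.18 to 0.25.

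The Nsmce4a transcript was therefore lower relative to each of the other 5 SMC5/6 members. With the WT mean set to 1, the ratio of Nsmce4a to Smc5 was 0.435, 0.429 and 0.393 in cKO libraries, against 1.16, 0.843 and 0.993 in WT libraries. The ratio to Smc6 averaged 0.474 ± 0.0366 in cKO and 1 ± 0.0946 in WT, and the ratio to Ndnl2 averaged 0.471 ± 0.0988 in cKO and 1 ± 0.0485 in WT (SD, n = 3 each). Against Nsmce1 and Nsmce2, whose own levels differed little, the mean ratios in cKO were 0.661 ± 0.0816 and 0.588 ± 0.0423. Against the geometric mean of the other 5 members the ratio was 0.484, 0.510 and 0.552 in cKO libraries, against 1.11, 0.933 and 0.962 in WT libraries. The genotypes did not overlap in any of these 6 ratios. The ratio of Smc5 to Smc6 overlapped, at 0.992 to 1.28 in cKO and 0.882 to 1.22 in WT libraries. The ratios with Nsmce4a share the values already given and carry no test of their own.

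**Figure D2:**
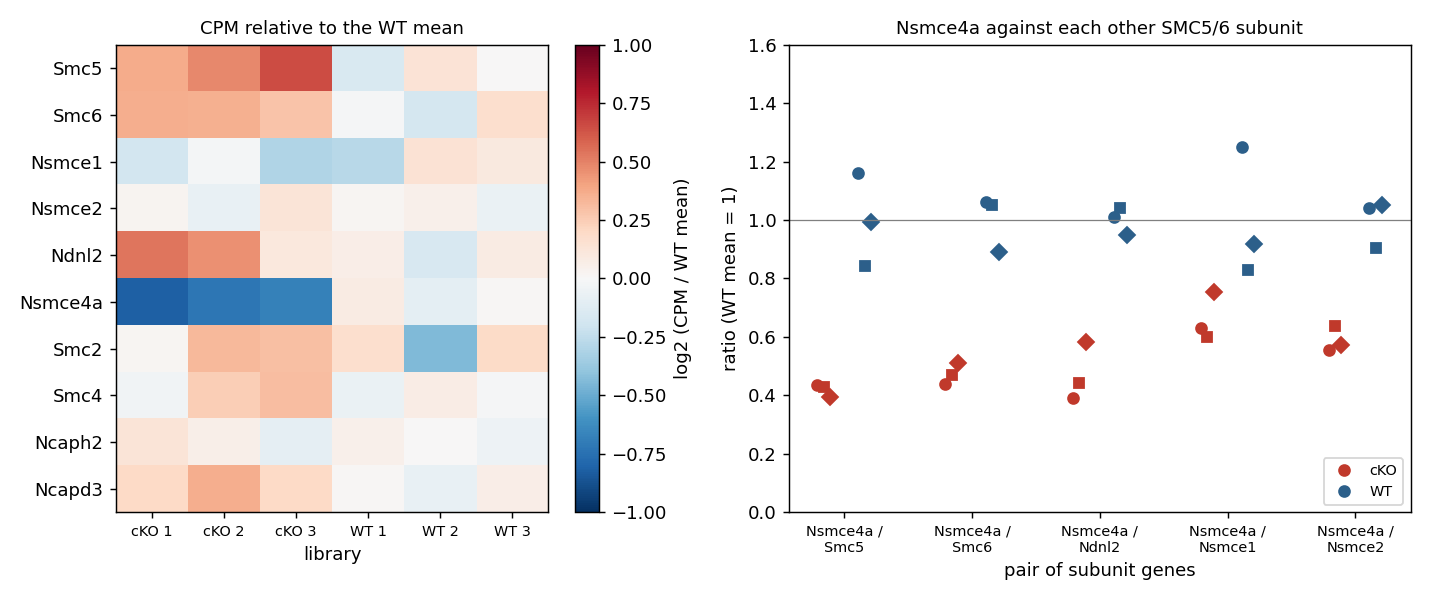
Left, log2 ratio of each gene's CPM to its WT mean (colour, red higher and blue lower) in the 3 cKO and 3 WT libraries; right, ratio of Nsmce4a to each other SMC5/6 gene (y axis, WT mean set to 1, marker shape for the replicate) in cKO (red) and WT (blue). Nsmce4a is the 1 dark blue row in cKO, and its ratio to Smc5 is 0.393 to 0.435 in cKO libraries and 0.843 to 1.16 in WT libraries.

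None of the 4 condensin genes passed the test. Ncapd3, a HEAT-repeat subunit of condensin II, had 29.6, 33.1 and 29.5 CPM in cKO libraries, against 25.9, 24.4 and 26.9 CPM in WT libraries. It was the 1 condensin gene whose groups did not overlap (log2 fold change 0.25, SE 0.09, 95% interval 0.05 to 0.46, edgeR adjusted p = 0.180). Ncaph2, the kleisin of condensin II, had 88.6, 84.2 and 76.3 CPM in cKO libraries, against 84.0, 81.1 and 78.1 CPM in WT libraries. Those groups overlapped, and the log2 fold change was 0.03 with a 95% interval of -0.15 to 0.22. Exons of Sco2 and Tymp on the opposite strand cover 19.7% and 12.7% of the Ncaph2 exons, and no source used here says whether the counting used strand, so its level is uncertain.

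Smc2 and Smc4 are the ATPases shared by both condensins. Smc2 had 9.18, 11.3 and 11.2 CPM in cKO libraries, against 10.2, 6.69 and 10.3 CPM in WT libraries. Smc4 had 9.06, 11.02 and 11.5 CPM in cKO libraries, against 8.87, 9.75 and 9.21 CPM in WT libraries. In both genes the genotypes overlapped. Their log2 fold changes were 0.22 (95% interval -0.23 to 0.67) and 0.18 (-0.12 to 0.49), wide intervals resting on 105 to 273 counts per library. Without WT replicate 2 the value for Smc2 was 0.045, and without cKO replicate 3 that for Smc4 was 0.11. Smc2 followed Smc4 in cKO, with a ratio of 0.988 to 1.04 relative to the WT mean, while WT replicate 2 was low at 0.696.

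Counted together, 8 of the 10 genes had positive log2 fold changes, against 49.2% of all genes tested, and the median was 0.20 against -0.004 for all genes. Groups did not overlap in 4 members that were higher in cKO and 1 that was lower, against 14.6% and 12.4% of all genes tested (27% in either direction). The same 5 members had an unadjusted edgeR p below 0.05, against 11.1% of all genes on the higher side and 8.81% on the lower side (19.9% in all). The members were named with results of these data known, so these shares are a description only. The authors' deposited table called 2 of the 10, Nsmce4a and Smc5, against 4.06% of its genes with an adjusted p, and DESeq2 run on the counts called the same 2, against 6.02% of its genes.

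**Figure D3:**
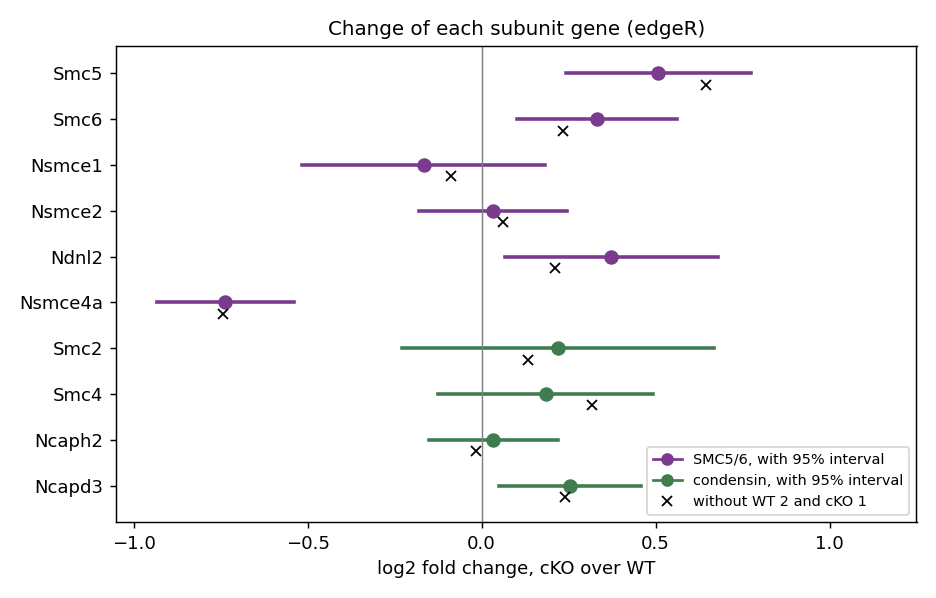
Log2 fold change, cKO over WT (x axis), of each member with its 95% interval from edgeR, in purple for SMC5/6 and green for condensin; crosses give the value without WT replicate 2 and cKO replicate 1. The interval of Nsmce4a, -0.93 to -0.54, lies below 0, those of Smc5, Smc6, Ndnl2 and Ncapd3 lie above 0 before adjustment over all genes, and the other 5 cross 0.

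Levels can be set side by side only per length of exon, here CPM per kilobase of the GENCODE M21 exons of each gene. On that scale Ncaph2, with the uncertainty from the opposite strand given above, was at 19.8 ± 1.48 in cKO and 19.3 ± 0.70 in WT (SD, n = 3 each), above the other members except Ndnl2, whose place depends on the annotation, and Smc2 (1.93 ± 0.220 in cKO and 1.66 ± 0.377 in WT) and Smc4 (2.02 ± 0.248 in cKO and 1.78 ± 0.0856 in WT) were the lowest and did not differ beyond their spread. Nsmce4a had a length-scaled level of 4.76 ± 0.236 in cKO and 7.93 ± 0.478 in WT. Smc5 was at 4.77 ± 0.483 in cKO and 3.36 ± 0.339 in WT, and Nsmce2 at 6.70 ± 0.471 in cKO and 6.56 ± 0.267 in WT. Nsmce1 was at 8.15 ± 0.805 in cKO and 9.12 ± 1.40 in WT, so in WT its length-scaled level and that of Nsmce4a did not differ beyond their spread. Smc6 (3.84 ± 0.115 in cKO and 3.05 ± 0.359 in WT) and Ncapd3 (3.89 ± 0.256 in cKO and 3.26 ± 0.160 in WT) were also close. Part of this order depended on the length used. With the longest transcript in place of all exons, Nsmce4a was at 8.47 ± 0.420 in cKO and 14.1 ± 0.851 in WT, apart from Smc5 in both genotypes (5.70 ± 0.576 in cKO and 4.01 ± 0.405 in WT) and above Nsmce1 in WT (9.68 ± 0.955 in cKO and 10.8 ± 1.66 in WT). Smc6, at 8.57 ± 0.257 in cKO and 6.80 ± 0.800 in WT, then stood above Ncapd3, at 5.59 ± 0.368 in cKO and 4.68 ± 0.230 in WT. Ndnl2 cannot be placed: its GENCODE exon spans 5946 bases and gives 6.95 ± 1.05 in cKO and 5.35 ± 0.486 in WT, but the RefSeq gene spans 1359 bases, which gives at least 30.4 in cKO and 23.4 in WT.

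The members lie on 7 chromosomes, with 3 of them on chromosome 7, where Nsmce4a covers bases 130532526 to 130573118 on the minus strand (GRCm38, GENCODE M21). Neither neighbour passed the test. Ate1, an arginyl transferase gene 12157 bp away, averaged 92.3 ± 4.18 CPM in cKO and 78.2 ± 7.10 CPM in WT (SD, n = 3 each; log2 fold change 0.24, edgeR adjusted p = 0.193). Tacc2, a coiled-coil protein gene 4320 bp away on the other side, averaged 87.9 ± 4.55 CPM in cKO and 85.4 ± 2.20 CPM in WT (log2 fold change 0.04). Ate1 was higher in every cKO library than in any WT library, and Tacc2 overlapped. The RefSeq start site used above lies 25737 bp inside the 5′ end of the GENCODE gene, which includes a longer transcript, and no exon of another annotated gene overlaps the Nsmce4a exons. The annotated span of Fgfr2, a growth factor receptor gene on the same strand, overlaps that of Nsmce4a with no shared exon base. Fgfr2 averaged 69.6 ± 14.3 CPM in cKO and 86.4 ± 14.5 CPM in WT with overlapping groups (SD, n = 3 each, log2 fold change -0.31, edgeR adjusted p = 0.368). The span of Ndnl2 likewise overlaps that of Fam189a1 on the same strand with no shared exon base. Fam189a1 had 111, 95.6 and 70.0 CPM in cKO libraries, against 63.0, 67.2 and 66.9 CPM in WT libraries, so that it too was higher in every cKO library (log2 fold change 0.49, edgeR adjusted p = 0.159). So were the nearest tested genes on either side of Ndnl2, Apba2 (log2 fold change 0.27) and Tjp1 (0.21), and 14.6% of all genes tested. On the same chromosome and strand as Nsmce4a lie Nsmce1 (125467640 to 125491596) and Ndnl2 (64867052 to 64872997). Smc5 is on chromosome 19 (23206451 to 23273897, minus strand) and Smc6 on chromosome 12 (11265886 to 11319785, plus strand). Chromosome 15 holds Nsmce2 (59374247 to 59601684) and Ncaph2 (89355719 to 89372826) on the plus strand. Smc2 is on chromosome 4 (52439243 to 52488260), Smc4 on chromosome 3 (69004738 to 69034623) and Ncapd3 on chromosome 9 (27030175 to 27095315), all on the plus strand.

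A shared feature that the choice of genes did not use is a divergent neighbour. Chosen after the values were seen, 5 of the 10 members had a tested gene on the opposite strand that started within 200 bp of their own 5′ end, against 7.01% of the 14806 tested genes with a position. These pairs were Smc6 with the Holliday junction resolvase gene Gen1 (85 bp), Nsmce2 with E430025E21Rik (80 bp), Smc4 with the intraflagellar transport gene Ift80 (168 bp), Ncaph2 with Lmf2 (60 bp) and Ncapd3 with the retromer gene Vps26b (110 bp). The log2 fold changes of these partners ran from -0.12 for Lmf2 to 0.06 for Ift80, and none passed the test. Gen1 was too low for a close value, at 0.59 to 0.76 CPM in cKO and 0.56 to 0.86 CPM in WT libraries, with a 95% interval of -0.85 to 0.64 around its log2 fold change of -0.10.

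The genes most like Nsmce4a across the 6 libraries, by Pearson correlation of log2 CPM among 14254 genes with a mean of at least 1 CPM, were Pak4 (r = 0.994), Def8 (0.989) and 1700123O20Rik (0.989). With 6 libraries in separate groups this mostly describes the shared difference between genotypes and is given with no test. Def8 fell (41.4 ± 0.56 CPM in cKO and 64.0 ± 0.83 CPM in WT, SD, n = 3 each, log2 fold change -0.63, edgeR adjusted p = 0.0103). Pak4, a kinase gene, had a log2 fold change of -0.30 and did not pass.

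Other subunits and pathway partners, in 6 lists with 87 tested genes, had no gene past the edgeR threshold. At an unadjusted p below 0.05 there were 15 of the 87 (19.9% of all genes tested), limma-voom called 0, and DESeq2 called 2, Mus81 and Mki67 (6.02% of all genes it tested). These counts were no higher than the shares over all genes. Of 10 further condensin and SMC5/6 subunits and partners tested, 7 had positive log2 fold changes (median 0.09), and Akap8, an anchoring protein that binds condensin, had the smallest p (log2 fold change 0.18, edgeR adjusted p = 0.223). Of the subunits specific to condensin I, Ncapd2 averaged 31.1 ± 1.33 CPM in cKO and 29.8 ± 1.62 CPM in WT, its kleisin Ncaph 0.81 ± 0.43 CPM in cKO and 1.48 ± 0.11 CPM in WT (SD, n = 3 each, edgeR adjusted p = 0.315), and Ncapg had 0.124 to 0.253 CPM in cKO and 0.154 to 0.829 CPM in WT libraries and was too low to test. Ncapg2 of condensin II had a log2 fold change of 0.11 and overlapped. Ankrd32 and Fam178a, the older symbols of the SMC5/6 loading factors Slf1 and Slf2, had log2 fold changes of 0.31 (edgeR adjusted p = 0.256) and 0.08. Eid3, also of this list, had 0.379 to 0.573 CPM in cKO and 0.199 to 0.319 CPM in WT libraries. It was too low to test, and the ratios with Nsmce4a above leave it out.

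In the SUMO pathway 11 of 19 tested genes were positive (median 0.02), and the smallest p was that of the SUMO ligase Pias2 (log2 fold change 0.21, edgeR adjusted p = 0.154). MAGE genes, the family of Ndnl2, and EID genes together had 6 of 10 positive values (median 0.01), led by Eid2b (-0.24, adjusted p = 0.222). Topoisomerases had 6 of 8 positive values (median 0.08), led by Top1mt (-0.30, adjusted p = 0.276). The medians of these 3 lists lay between 0.01 and 0.08, beside -0.004 for all genes.

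Recombination and fork repair genes spread to both sides, with 12 of 28 tested genes positive (median -0.06). Mus81, a structure-specific endonuclease that acts on recombination intermediates, had 10.9, 9.49 and 14.0 CPM in cKO libraries, against 20.2, 18.7 and 20.6 CPM in WT libraries. The groups were well apart, and the edgeR adjusted p of 0.0557 missed the threshold (log2 fold change -0.79, SE 0.15), while DESeq2 gave 0.00115. Proliferation genes had 13 of 14 negative values (median -0.51), where 49.2% of all genes tested were positive, and none passed the edgeR test. The groups did not overlap in 4, all lower in cKO, against 12.4% of all genes tested. Top2a, whose groups overlapped, had 8.73 CPM in WT replicate 2, the library with the most striatal RNA, against 2.45 and 4.96 CPM in WT replicates 1 and 3. The 4 genes without overlap had, in WT replicates 1 to 3, 5.29, 7.90 and 5.22 CPM (Mki67), 3.71, 3.70 and 2.87 CPM (Aurka), 0.728, 0.892 and 0.768 CPM (Bub1), and 0.662, 1.02 and 0.665 CPM (Aurkb). The part of tissue content in these values was not tested. Bub1, a mitotic checkpoint kinase gene, had the smallest p (log2 fold change -1.21, edgeR adjusted p = 0.123) at only 0.34 ± 0.07 CPM in cKO and 0.80 ± 0.09 CPM in WT (SD, n = 3 each), and Mki67 averaged 3.16 ± 0.95 CPM in cKO and 6.14 ± 1.53 CPM in WT.

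**Figure D4:**
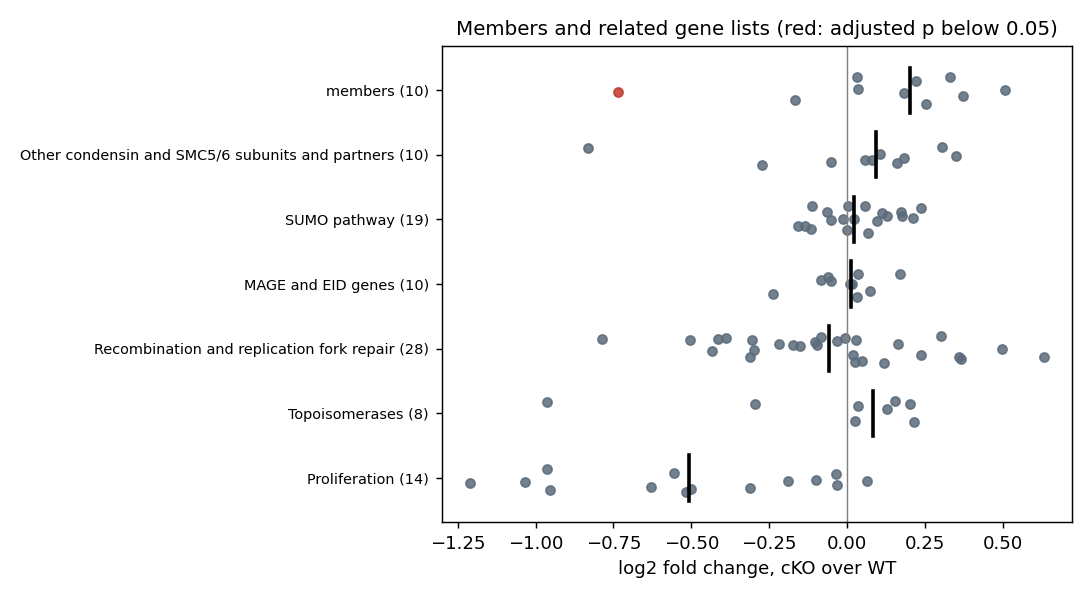
Log2 fold change, cKO over WT (x axis), of each tested gene in the members and in 6 related lists (rows, number of genes in brackets), with a black bar at the median and red for an edgeR adjusted p below 0.05. Nsmce4a is the 1 red point, and the proliferation list has the lowest median, -0.51.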

How the data were processed

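Hippocampal RNA was prepared with Qiagen reagents and sequenced from TruSeq libraries, per the labels' protocols. The authors deposited raw read counts for each gene symbol. Per the submitters' processing notes, the tools were TopHat2 2.0.10, HTSeq 0.6.1p1, cutadapt and DESeq2 1.6.3 with build mm10; settings and annotation were not stated. The authors' deposited table also holds a log2 fold change (cKO over WT), its p-value and an adjusted value, quoted where named. A chi-square test gave at least 10.7 per degree of freedom between any pair of libraries, so none was a copy.

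Counts were tested with edgeR 4.0.16 (R 4.3.3) by quasi-likelihood, with TMM scaling, a filter at a minimum count of 10, no block, and Benjamini-Hochberg adjustment over 14916 genes at a threshold of 0.05. The test was checked on simulated counts. The SE was the absolute log2 change over the root of F. Alternatives used DESeq2 1.42.0, limma-voom 3.58.1, other scalings, filters and thresholds, a replicate block, and libraries left out. GENCODE M21 matched 24046 symbols (98.5%), among them all 10 members, and RefSeq promoter windows matched 8 members. Named were all members, Ctcf, the neighbours and closest patterns of called members, and the smallest p of each related list; other genes were named after their values were seen. The members and lists were chosen with earlier results of these data known.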

Additional observations from a re-analysis of the deposited data

How the results depend on the processing

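The count of all genes called depended strongly on the test and the libraries. It was 225 with edgeR, 881 with DESeq2, 111 without both WT replicate 2 and cKO replicate 1, 691 at a threshold of 0.1 and 20 at 0.01, and 12 to 147 with each library left out in turn. Of the members 1 was called, against 2 with DESeq2 and at a threshold of 0.1 (Smc5 and Nsmce4a in both), 0 at 0.01 and 0 to 1 with each library left out. Of the related genes 0 were called, against 2 with DESeq2, 1 without a low-count filter and 1 at a threshold of 0.1 (Mus81 in each), and 0 to 1 with each library left out. The log2 fold change of Nsmce4a ran from -0.78 to -0.69 over 14 alternatives, and its adjusted p was past the threshold in 10 of them. The log2 fold change of Nsmce2 ran from -0.0227 (without cKO replicate 3) to 0.0822 (without cKO replicate 2) and that of Ncaph2 from -0.0144 (without cKO replicate 1) to 0.0894 (without cKO replicate 3) with 1 library left out, and Ncaph2 was at -0.0154 without both WT replicate 2 and cKO replicate 1. The cause was not tested, other than that leaving out libraries leaves fewer samples.

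With the replicate number as a block edgeR called 185 genes, 125 of them among the 225, and Nsmce4a kept its call (adjusted p = 0.0389). Deviations from the group means of same-numbered libraries correlated at 0.219, 0.425 and 0.0788. Those of differently numbered libraries correlated at -0.41 to 0.188, the highest being cKO replicate 3 with WT replicate 1. These values do not settle whether the numbers mark pairs. The main fit had no block because the labels do not say that a number marks a litter or batch. Length-scaled levels moved by more than 1 SD in 16 of 20 values when the longest transcript replaced all exons.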
